A study of Monodelphis domestica with 2 samples.

Results

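IT_A and IT_B are subclasses of intratelencephalic (IT) glutamatergic neurons of the opossum Monodelphis domestica, a marsupial, and were found in its primary visual cortex (V1). They were compared in the single-nucleus RNA-seq (snRNA-seq) nuclei whose deposited subclass label was IT_A or IT_B, which gave 9864 IT_A nuclei and 1726 IT_B nuclei, together 11590 of the 32764 labelled nuclei in 18 subclasses. The animals were 2 adult males in a single untreated group, aged 1.5 years (animal 1) and 2 years (animal 2), and V1 of both hemispheres was pooled within each animal. Flash-frozen tissue gave nuclei that were sorted on a DNA stain, and each animal's suspension was split into 2 libraries. The animals were processed in parallel by different experimenters, so animal, age and handling cannot be told apart.

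IT neurons are the excitatory cells that send their axons to other parts of the cortex and to the striatum, and they lie in the upper layers, in layer 4 and in deeper layers. Within a sensory area, cells of layer 4 are the main targets of thalamic axons, and cells of layers 2 and 3 pass the signal on to other cortical fields. In rodents the nuclear receptor RORB is a familiar marker of layer 4, and CUX2 one of the upper layers as a whole. Neighbouring IT types share most of their transcripts and differ in graded sets of channels, receptors, adhesion molecules and transcription factors.

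Counts were summed per animal and subclass over both libraries, which left 2 sums a side, and levels are given as CPM, a gene's UMIs (unique molecular identifiers) scaled to the total of the sum. The sums held 36211404 UMIs in IT_A of animal 1 and 53793396 in IT_A of animal 2, against 7973918 and 7792637 in IT_B. Median depth per nucleus was 7794 and 8753 UMIs in IT_A and 8681 and 8021 UMIs in IT_B, so the order of the depths differed between the animals. IT_B made up 16.5% of the pair in animal 1 (851 of 5152 nuclei) and 13.6% in animal 2 (875 of 6438), a mean of 15.1% ± 2.07 (SD, n = 2). Scrublet, a doublet caller, had marked 1.26% to 2.03% of these nuclei, and between 1 and 4 of the nuclei compared carried a barcode also seen in another library, for any pair of libraries. The authors had drawn the subclasses by clustering the same nuclei on the same genes. A p-value here therefore measures whether a difference between given labels exceeded the spread between 2 animals, and not whether the subclasses exist.

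The labels were first set against the 3 marker genes that came with the comparison. RORB (ENSMODG00000002046) stood at 105 and 124 CPM in IT_A of animals 1 and 2 and at 1344 and 1592 CPM in IT_B. CDH9 (ENSMODG00000004237), a classical cadherin that mediates adhesion between cells, had the opposite order, with 108 and 76.5 CPM in IT_A and 13.4 and 10.1 CPM in IT_B. WHRN (ENSMODG00000019572), the scaffold protein whirlin, measured 18.3 and 19.5 CPM in IT_A and 36.5 and 50.4 CPM in IT_B. The log2 fold change of IT_A over IT_B was -3.74 ± 0.26 for RORB, 2.90 ± 0.24 for CDH9 and -1.27 ± 0.25 for WHRN (SE of the fit). The glutamatergic marker NEUROD6 was present in both, at 18.6 and 19.8 CPM in IT_A and 17.8 and 20.4 CPM in IT_B. GABAergic markers summed to 16.0 and 16.8 CPM in IT_A and 13.7 and 21.7 CPM in IT_B, against 1883 CPM in Pvalb interneurons, and oligodendrocyte markers to 90.6 and 93.8 CPM against 101 and 89.2 CPM, with 13245 and 13359 CPM in oligodendrocytes. Microglial markers summed to between 1.92 and 3.64 CPM and endothelial markers to between 15.3 and 21.9 CPM in these sums.

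The summed markers of astrocytes and of oligodendrocyte precursors were higher in IT_B in both animals. The precursor sums were 2.02 and 1.58 CPM in IT_A and 2.63 and 4.11 CPM in IT_B. PDGFRA carried them, at 1.41 and 1.25 against 2.38 and 3.72 CPM, with no call (adjusted p = 0.142 in edgeR). CSPG4, at 0.552 and 0.316 against 0.251 and 0.385 CPM, turned between the animals, and OLIG2 was at 0 CPM in IT_B. The 6 astrocyte genes summed to 145 and 170 CPM in IT_A and to 262 and 423 CPM in IT_B, against 20103 and 19126 CPM in astrocytes. The difference lay in SLC1A2, a glutamate transporter (126 and 151 against 212 and 370 CPM, adjusted p = 0.0601), and in ALDH1L1, a folate enzyme, which was higher in IT_B (5.85 and 6.53 against 34.6 and 38.0 CPM, adjusted p = 0.000128). AQP4 and GJA1 stayed between 1.13 and 3.14 CPM in every sum and SLC1A3 between 7.32 and 9.53 CPM, with no difference called. GFAP reached at most 1.15 CPM and was not among the genes tested. The part of glial RNA in the other results was not tested.

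Across all genes, 1369 of the 16720 tested differed between IT_A and IT_B at an adjusted p under 0.05 in edgeR's quasi-likelihood test with Benjamini-Hochberg adjustment, which is 8.19% of those tested. Of these, 619 were higher in IT_A (3.7%) and 750 were higher in IT_B (4.49%). Which side was larger depended on the processing: with library size only and no TMM factor 724 were higher in IT_A and 653 in IT_B, and without the low-count filter 1059 and 1017. The absolute log2 fold change was at least 1 for 439 and 530 of them and at least 2 for 210 and 216, and the median absolute log2 fold change was 1.51 for genes higher in IT_A and 1.41 for genes higher in IT_B. All 1369 called genes had the same direction in both animals, with both sums of IT_A on one side of both sums of IT_B. With 2 sums a side the call itself selects for this order, so the order is no further support. Among all genes tested the direction was shared by 12196 (72.9%). With the animal as a block, 3953 genes were called (23.6%), all 1369 among them. Nuclei were also relabelled from genes other than those tested, with training on the other animal, which returned the deposited label for 89.6% to 92.5% of IT_A and 98.3% to 99.3% of IT_B nuclei. Under those labels 1191 genes were called, and 1116 of them were among the 1369. The labels used for training came from clustering that included the genes tested, and the variable genes were picked over nuclei of both animals. The relabelling therefore does not make the test independent of the clustering.

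**Figure D1:**
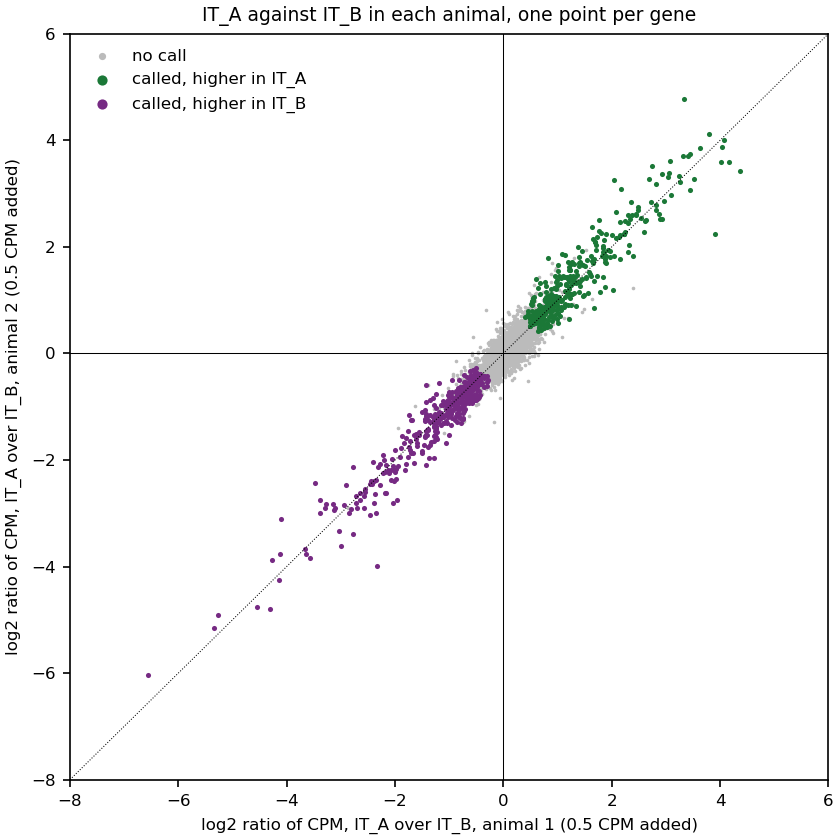
Log2 ratio of CPM in IT_A over IT_B in animal 1 (horizontal) and animal 2 (vertical), with 0.5 CPM added to both levels, for the 5953 genes that reached 20 CPM in both sums of the subclass where they were higher. Each point is a gene, green where called higher in IT_A, purple where called higher in IT_B and grey where not called, and the called genes lie along the dotted line of equal ratios (Pearson r over all points 0.952, a description across genes, which are not independent replicates).

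The genes with the largest differences were taken in each direction among the 517 called genes that had a symbol and reached 20 CPM in both sums of the subclass where they were higher (241 higher in IT_A, 276 higher in IT_B). The 12 that led in IT_A held a channel, a calcium sensor, a member of the synaptotagmin family, a growth factor and a nuclear receptor. TRPC6, a cation channel opened by diacylglycerol, stood at 26.2 and 51.9 CPM in IT_A of animals 1 and 2 and at 2.13 and 1.41 CPM in IT_B (log2 fold change 4.41 ± 0.53, adjusted p = 0.00114). OTOF, the calcium sensor otoferlin, stood at 20.4 and 44.1 CPM in IT_A and at 1.00 and 2.05 CPM in IT_B (log2 fold change 4.35 ± 0.56, adjusted p = 0.00155). Both genes were about 2-fold higher in IT_A of animal 2 than in IT_A of animal 1, and the lower of these sums still lay far above IT_B. SYT17, of the synaptotagmin family, had 53.6 and 42.2 CPM in IT_A and 2.13 and 3.46 CPM in IT_B (log2 fold change 4.02 ± 0.30). PDGFD, a ligand of platelet-derived growth factor receptors, had 23.7 and 57.6 CPM in IT_A and 2.38 and 4.23 CPM in IT_B (log2 fold change 3.58 ± 0.54).

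Others in this group varied less between the animals. LUZP2 measured 474 and 506 CPM in IT_A against 37.6 and 34.4 CPM in IT_B (log2 fold change 3.70 ± 0.35), and GRAMD2A, a protein of contacts between endoplasmic reticulum and plasma membrane, measured 121 and 131 CPM against 10.7 and 9.37 CPM (log2 fold change 3.59 ± 0.16). RXRG, a retinoid X receptor, stood at 33.0 and 29.0 CPM against 3.51 and 2.31 CPM (log2 fold change 3.34 ± 0.21). DPYD, the first enzyme of pyrimidine breakdown, stood at 625 and 527 CPM against 81.8 and 50.6 CPM (log2 fold change 3.06 ± 0.19). The remaining members were ARHGEF28, an exchange factor for small GTPases, SLC24A4, a potassium-dependent sodium-calcium exchanger, RGS8, a regulator of G-protein signalling, and CDH9, with log2 fold changes between 2.90 and 3.37. Without a symbol in the files, ENSMODG00000038659 (26.4 and 21.8 against 1.13 and 1.03 CPM) and ENSMODG00000033877 (160 and 214 against 9.03 and 12.8 CPM) led the genes known by identifier only.

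The 12 genes that led in IT_B included secreted regulators of BMP and Wnt signalling as well as RORB. PLD5, of the phospholipase D family, stood at 17.9 and 16.1 CPM in IT_A and at 366 and 461 CPM in IT_B (log2 fold change -4.68 ± 0.39, adjusted p = 0.000161). PSTPIP2, a membrane-bending F-BAR protein, had 1.02 and 1.73 CPM in IT_A and 26.2 and 42.0 CPM in IT_B (log2 fold change -4.66 ± 0.40). PDE3A, a phosphodiesterase that breaks down cyclic AMP, had 3.29 and 2.58 CPM in IT_A and 72.9 and 45.04 CPM in IT_B (log2 fold change -4.39 ± 0.38). For none of these 3 genes did IT_A come near IT_B in either animal. VWC2, a secreted antagonist of BMPs, measured 4.09 and 4.02 CPM against 79.9 and 61.1 CPM (log2 fold change -4.18 ± 0.27), and BMP6, a BMP ligand, measured 3.78 and 2.88 CPM against 52.9 and 45.4 CPM (log2 fold change -3.96 ± 0.19). FRZB, a secreted Wnt antagonist, stood at 4.28 and 3.68 CPM against 56.3 and 59.7 CPM (log2 fold change -3.94 ± 0.19). CXXC4, an inhibitor of Wnt signalling inside the cell, stood at 13.5 and 8.68 CPM against 94.9 and 95.6 CPM (log2 fold change -3.19 ± 0.19).

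NECAB1, a neuronal calcium-binding protein, was at 8.53 and 9.80 CPM in IT_A and 71.2 and 126 CPM in IT_B. TAFA4, a secreted chemokine-like protein, was at 17.2 and 27.7 CPM in IT_A and 174 and 210 CPM in IT_B. The set closed with the adaptor BCAR3 and the adhesion G-protein-coupled receptor ADGRG6, at log2 fold changes of -3.48 and -3.32. Among genes without a symbol, ENSMODG00000029935 (1.24 and 1.49 against 164 and 130 CPM) and ENSMODG00000000312 (1.16 and 1.19 against 67.0 and 59.5 CPM) were the most different, with log2 fold changes of -6.78 ± 0.39 and -5.80 ± 0.20.

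**Figure D2:**
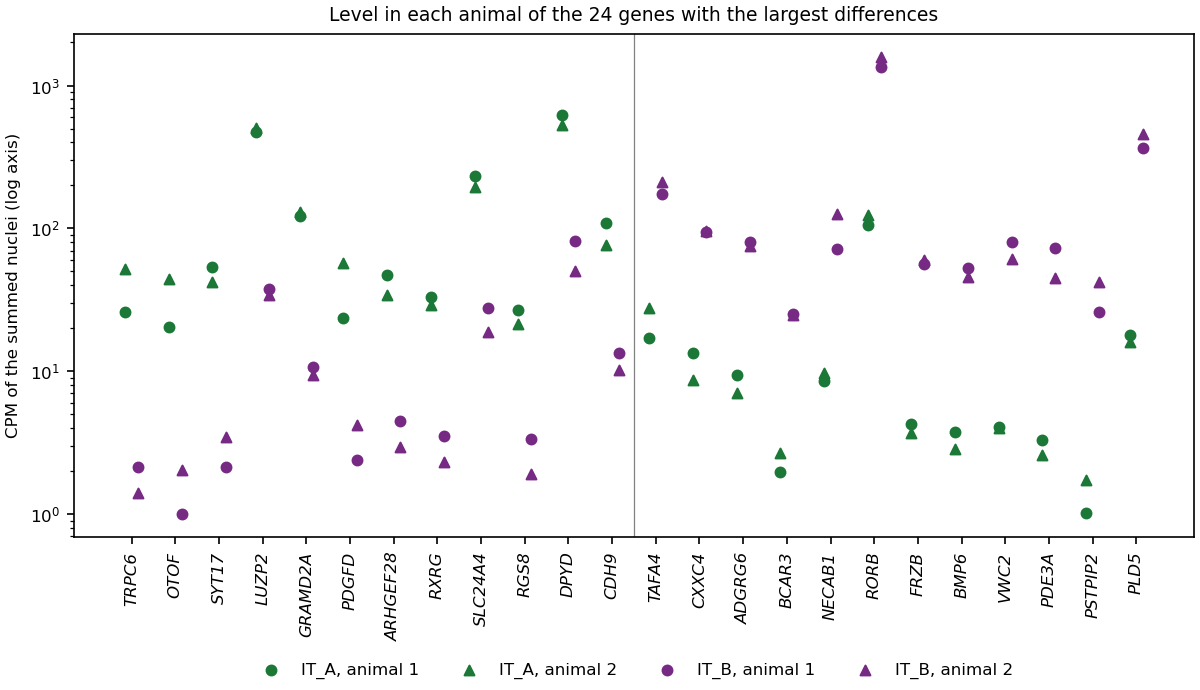
CPM on a log axis of the 12 leading genes of each direction, for the sum of IT_A nuclei (green) and of IT_B nuclei (purple) in animal 1 (circles) and animal 2 (triangles). Every gene left of the line has both green points above both purple points, as for TRPC6 at 26.2 and 51.9 against 2.13 and 1.41 CPM, and every gene to its right has the reverse order, as for RORB.

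The genes were also placed among the other IT subclasses, IT_C (2499 nuclei) and IT_D (373 nuclei, 58 of them in animal 1). Of the 619 genes higher in IT_A, IT_A was the highest of the 4 IT subclasses in both animals for 347, while IT_D was the highest for 126 and IT_C for 51, and IT_B was the lowest of the 4 for 302. Of the 750 genes higher in IT_B, IT_B was the highest for 479, IT_C for 116 and IT_D for 56, and IT_A was the lowest for 203 and IT_D for 262. The 12 genes that led in IT_B all had their highest IT level in IT_B, though RORB was also high in IT_C, at 844 and 772 CPM, and low in IT_D, at 35.2 and 67.5 CPM. Of the 12 that led in IT_A, 9 had their highest IT level in IT_A. RXRG was not among them, with 33.0 and 33.2 CPM in IT_C. SLC24A4 was at 144 and 287 CPM in IT_D, and RGS8 at 28.2 and 14.6 CPM, so that their order against IT_A turned between the animals. Across all 18 subclasses, 5 of the 12 that led in IT_B were highest there in both animals (RORB, TAFA4, FRZB, PSTPIP2 and PLD5). Of the 12 that led in IT_A, only DPYD was highest in IT_A. LUZP2 was higher in astrocytes (2414 and 2970 CPM), SLC24A4 in microglia (1767 and 1803 CPM) and PDGFD in endothelial cells (907 and 1780 CPM). Of all called genes, IT_A was the highest of the 18 for 60 of the 619 and IT_B for 132 of the 750.

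IT_A held 5 deposited types and IT_B a single one, so the difference could be read type by type. Of the 343 called genes that were higher in IT_A with at least 20 CPM there, 278 (81.0%) were above IT_B in all 5 types of both animals. Of the 410 that were higher in IT_B with at least 20 CPM, 372 (90.7%) were below IT_B in every type. The types did not stand equally far from IT_B. Among the 410 genes, the IT_A type with the highest level was IT_A_4 for 110 and IT_A_2 for 108 in both animals, and the type with the lowest was IT_A_5 for 153. Among the 343, IT_A_5 was the highest type for 111, and the lowest was IT_A_2 for 97 and IT_A_4 for 81.

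RORB showed this spread. It was at 178 and 203 CPM in IT_A_2, 135 and 148 CPM in IT_A_4 and 76.1 and 142 CPM in IT_A_1, and at 15.3 and 31.8 CPM in IT_A_3 and 17.2 and 15.02 CPM in IT_A_5, all far below IT_B. CDH9 was concentrated in IT_A_4 (266 and 241 CPM) and IT_A_5 (147 and 159 CPM), and the other types had 26.0 to 60.9 CPM. BCL11B, the zinc-finger factor known from subcerebral projection neurons, was called higher in IT_A (133 and 103 against 29.6 and 30.03 CPM, log2 fold change 1.91 ± 0.29). Its level was 439 and 426 CPM in IT_A_4 and 29.9 to 68.2 CPM in the other types. IT_A_1 and IT_A_3 had 29.9 to 36.3 CPM, beside the level of IT_B, and IT_A_2 had 35.3 and 52.2 CPM. RXRG was highest in IT_A_2 (79.5 and 101 CPM, against 4.53 to 33.6 CPM in the others), and OTOF was lowest there (4.23 and 5.94 CPM). IT_A_5 lacked part of the IT_A pattern, with TRPC6 at 3.73 and 6.20 CPM and BDNF at 9.71 and 9.78 CPM, near the IT_B levels of 7.65 and 11.5 CPM for BDNF. Other called genes named here for which an IT_A type lay on the other side of IT_B in 1 animal were LDB2, ACVR1C, KIRREL3, CDH7, ADRA1B, CCK and ADAMTS2, and in both animals SORCS3, COL4A1, FOXP1 and GABRA5, the last pair in IT_A_2. Type IT_A_1 made up 22.8% of IT_A in animal 1, with a median of 4049 UMIs, and 44.3% in animal 2, with 8384 UMIs. Without this type 1643 genes were called, of which 1312 were among the 1369.

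**Figure D3:**
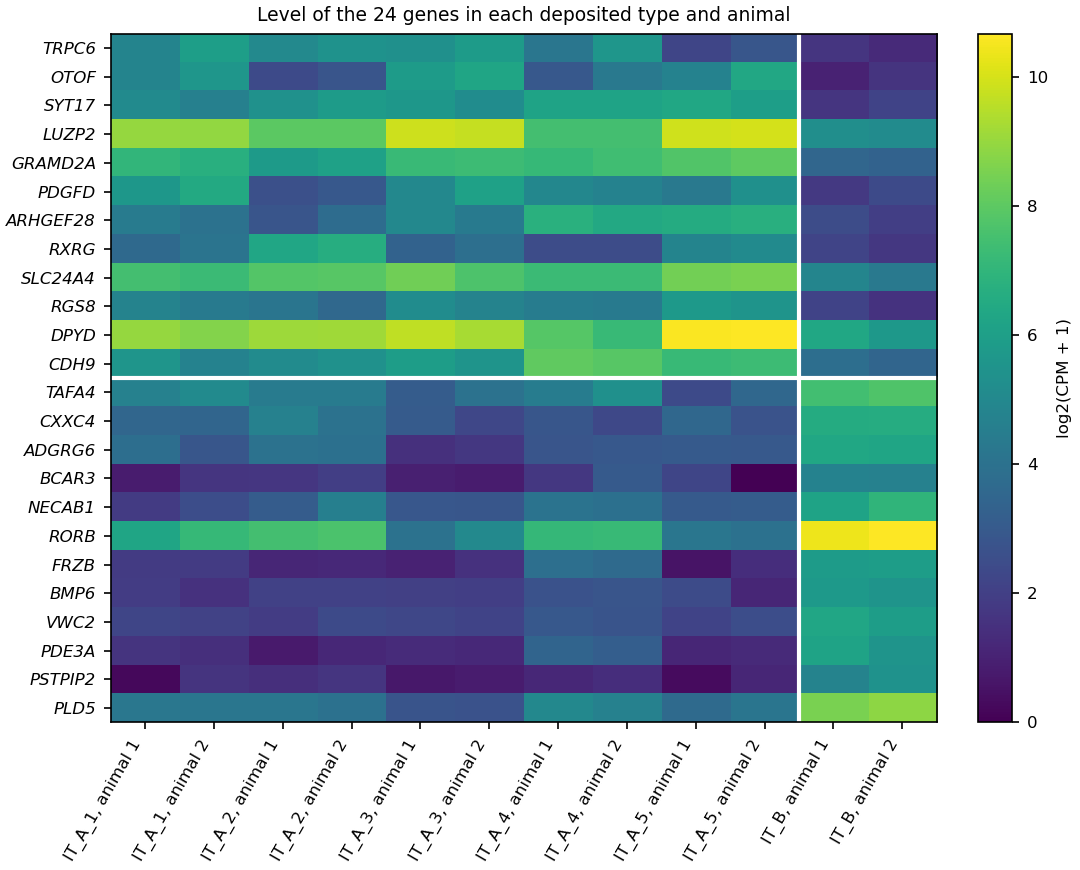
Level as log2(CPM + 1) of the 24 leading genes (rows) in each deposited type of IT_A and in IT_B, in animals 1 and 2 (columns). The upper block of 12 genes is brighter in the IT_A types than in the last pair of columns (IT_B) and the lower block is darker, with RORB in IT_A brightest in IT_A_2 and IT_A_4 and RXRG brightest in IT_A_2.

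A difference between sums can come from more nuclei with a gene's RNA or from more RNA per nucleus. The share of nuclei with a UMI rises with both, so it describes the difference but does not tell these apart. Each nucleus was thinned to 2000 UMIs, and shallower ones were left out. These were 44 and 38 of IT_A and 0 and 3 of IT_B in animals 1 and 2. Of the oligodendrocytes, whose median depth before thinning was 1924 and 1909 UMIs, 1241 and 960 were left out. RORB had a UMI in 14.4% and 16.1% of IT_A nuclei of animals 1 and 2 and in 87.4% and 92.9% of IT_B nuclei, with 3.46% and 4.96% of oligodendrocytes, which should lack it, as a background. Without thinning the shares were 31.2% and 32.8% in IT_A and 98.9% and 99.2% in IT_B. RORB RNA was thus seen in most IT_B nuclei and in a minority of IT_A nuclei, which does not show that the other IT_A nuclei lacked it. PLD5 was detected in 3.08% and 3.00% of IT_A and 46.4% and 49.4% of IT_B nuclei (9.18%, 9.71%, 77.1% and 78.1% without thinning), with 0.577% and 0.620% of oligodendrocytes. CDH9 was detected in 14.2% and 10.0% of IT_A nuclei (29.4% and 23.5% without thinning), whereas the IT_B shares of 1.88% and 1.49% lay beside those of oligodendrocytes (1.83% and 1.36%) and are read as background (7.17% and 6.40% without thinning). WHRN was detected in 3.66% and 3.76% of IT_A and 7.05% and 8.03% of IT_B nuclei (11.7%, 14.8%, 23.3% and 28.0% without thinning), with 0.674% and 1.24% of oligodendrocytes. TRPC6 was detected in 4.58% and 8.65% of IT_A nuclei (13.9% and 24.9% without thinning), and its IT_B shares of 0.235% and 0.115% (1.41% and 1.14% without thinning) were near those of oligodendrocytes, 0.0962% and 0.248%. Only RORB, among the genes plotted, had a UMI in most nuclei of the higher subclass at this depth.

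**Figure D4:**
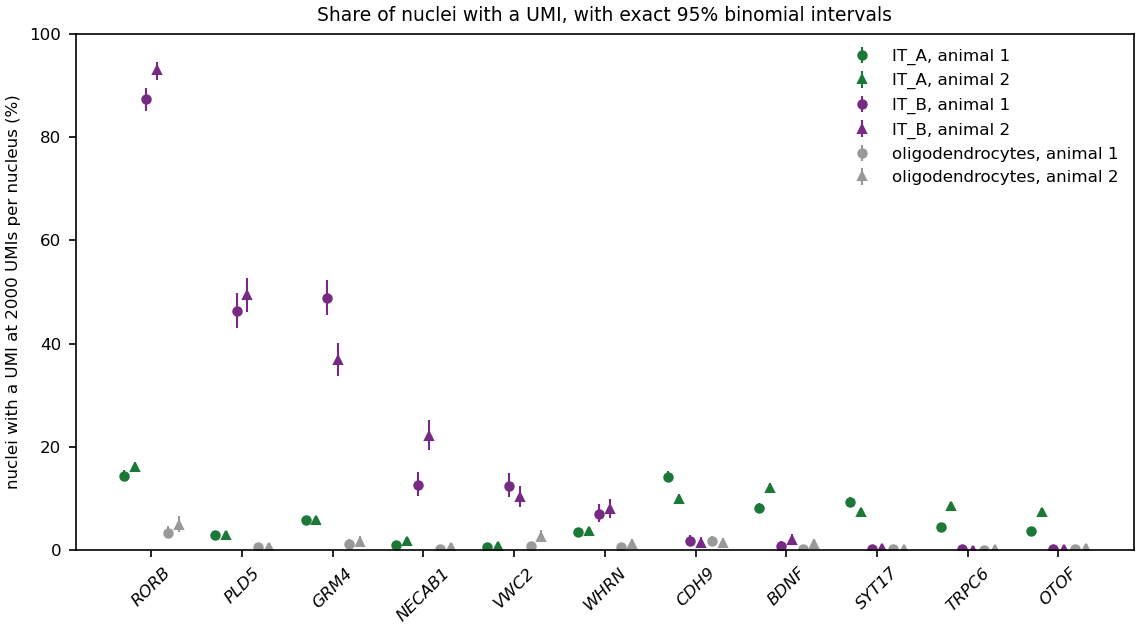
Percent of nuclei with at least 1 UMI of 11 genes after thinning to 2000 UMIs, in IT_A (green), IT_B (purple) and oligodendrocytes (grey) of animal 1 (circles) and animal 2 (triangles), with exact Clopper-Pearson 95% intervals that cover counting error only. Of these 11 genes RORB has the widest gap between the subclasses, 14.4% and 16.1% against 87.4% and 92.9%, and CDH9, with 14.2% and 10.0% in IT_A, shows the reverse order.

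Gene groups were read as counts beside the 8.19% of all genes tested that were called, or 8.76% of the 9222 tested genes with a symbol, and beside the median log2 fold change of all genes tested, 0.01. No list was tested against other genes. Of 28 cortical layer genes, 5 were higher in IT_A and 7 higher in IT_B (8 and 13 with the animal as a block), with a median log2 fold change of -0.41. TOX (278 and 285 against 600 and 655 CPM) and UNC5D were higher in IT_B, and DEPTOR was higher in IT_A (454 and 379 against 301 and 234 CPM). CUX2 did not separate the subclasses, at 362 and 490 CPM in IT_A and 343 and 531 CPM in IT_B (log2 fold change -0.10 ± 0.35, adjusted p = 0.959), and CUX1 was not called, at 169 and 169 against 182 and 175 CPM (adjusted p = 0.766). RASGRF2, a Ras exchange factor of upper-layer neurons, measured 704 and 773 CPM in IT_A and 1371 and 1363 CPM in IT_B, with an adjusted p of 0.0846 and of 2.7e-05 with the block. FEZF2, a factor of deep-layer projection neurons, was low in both, at 2.21 and 2.19 CPM in IT_A and 3.01 and 2.44 CPM in IT_B.

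Of 107 transcription factors, 16 were higher in IT_A and 13 in IT_B (30 and 30 with the block), with a median log2 fold change of -0.04. Beside RXRG and BCL11B, LDB2 was higher in IT_A, at 613 and 508 against 197 and 97.3 CPM. MAF, a bZIP factor, was higher in IT_B at 17.8 and 15.5 against 67.2 and 54.3 CPM (log2 fold change -1.93 ± 0.14), and TOX2 likewise at 61.5 and 38.6 against 144 and 119 CPM. FOXP1, a forkhead factor, was also called higher in IT_B, with a small log2 fold change of -0.57.

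Ion channels differed in both directions. Of 53 potassium channel genes, 10 were higher in IT_A and 9 in IT_B (17 and 13 with the block), with a median log2 fold change of 0.13. The IT_B side held the ether-a-go-go channels KCNH5 (305 and 301 against 1207 and 1356 CPM, log2 fold change -2.15 ± 0.15) and KCNH1 (log2 fold change -1.27 ± 0.11) and the sodium-activated channel KCNT2 (-1.35 ± 0.14). The IT_A side held KCNAB1, an auxiliary beta subunit (214 and 207 against 45.6 and 43.6 CPM), KCNN3, a calcium-activated small-conductance channel (222 and 131 against 44.0 and 31.6 CPM), and KCNK10, a leak channel (68.3 and 78.8 against 25.7 and 23.997 CPM). Of 48 sodium, calcium and other cation channel genes, 6 were higher in each subclass (15 and 14 with the block). TRPC6 and its close relative TRPC7 went opposite ways, since TRPC7 was at 69.8 and 70.7 CPM in IT_A and 283 and 323 CPM in IT_B (log2 fold change -2.18 ± 0.21). RYR1, a calcium release channel, was at 4.36 and 6.06 against 36.9 and 46.5 CPM, and TRPM3 at 178 and 174 against 483 and 518 CPM.

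Receptors for glutamate also went both ways, 4 of 22 higher in IT_A and 5 in IT_B (8 and 6 with the block). GRM4, a presynaptic metabotropic receptor, was at 39.3 and 40.3 CPM in IT_A and 385 and 288 CPM in IT_B (log2 fold change -3.14 ± 0.15), and GRM3 was also higher in IT_B (log2 fold change -1.67 ± 0.36). The AMPA receptor partners split, with GSG1L at 113 and 105 against 14.9 and 17.8 CPM and CNIH3 at 65.2 and 48.0 against 266 and 253 CPM. The kainate subunit GRIK4 was higher in IT_A (828 and 869 against 151 and 142 CPM), as was the AMPA subunit GRIA4 (log2 fold change 1.30 ± 0.13). Of 16 receptor genes for GABA and glycine, 0 were called higher in IT_A and 3 higher in IT_B (0 and 6 with the block), among them GLRA2 (69.3 and 66.6 against 197 and 239 CPM) and GABRA5 (77.0 and 66.0 against 129 and 130 CPM). At an unadjusted p under 0.05 the counts of this list were 0 and 4 in edgeR, and DESeq2 called 0 and 3. Of 48 receptors for neuromodulators and peptides, 10 were higher in IT_A and 5 in IT_B (16 and 12 with the block). NTSR1, a neurotensin receptor, was higher in IT_A (66.7 and 85.3 against 15.8 and 8.47 CPM), as were the adrenergic receptors ADRA1B and ADRB1 at log2 fold changes of 0.93 and 0.73. NPSR1, the neuropeptide S receptor, was higher in IT_B (32.2 and 23.1 against 110 and 64.2 CPM), as were HRH3 and ADORA1.

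**Figure D5:**
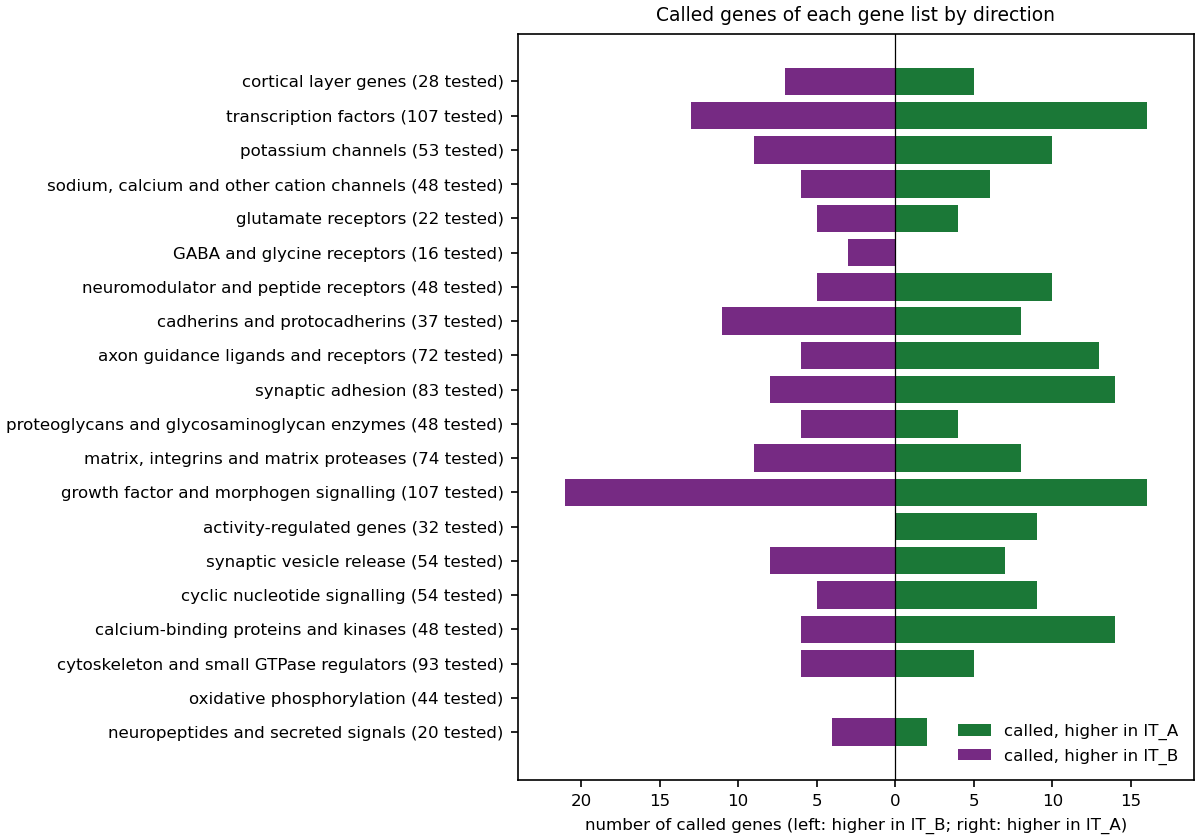
Number of called genes in each of 20 gene lists, to the right where higher in IT_A (green) and to the left where higher in IT_B (purple), with the number of genes tested beside each name. Most lists have bars on both sides, activity-regulated genes have 9 to the right and 0 to the left, GABA and glycine receptors have 0 to the right and 3 to the left, and oxidative phosphorylation has 0 on both sides.

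Adhesion and guidance genes formed the next groups. Of 37 cadherins and protocadherins, 8 were higher in IT_A and 11 in IT_B (11 and 13 with the block), 51.4% of those tested. CDH22 and CDH7 went with CDH9 (158 and 147 against 55.3 and 46.5 CPM for CDH22), while CDH6 was higher in IT_B (46.5 and 47.5 against 163 and 143 CPM), as were PCDH9 and the catenin CTNND1. Of 72 axon guidance genes, 13 were higher in IT_A and 6 in IT_B (28 and 15 with the block). The IT_A side included the semaphorin receptors PLXND1 (80.6 and 46.4 against 16.1 and 12.1 CPM) and NRP1 (30.4 and 41.4 against 9.03 and 9.37 CPM) and the ligand SEMA5B. The IT_B side included the netrin receptors DCC (104 and 58.9 against 544 and 414 CPM, log2 fold change -2.63 ± 0.30) and UNC5D (log2 fold change -1.01 ± 0.15) and the contactin CNTN6. Of 83 synaptic adhesion genes, 14 were higher in IT_A and 8 in IT_B (24 and 22 with the block), among them CADM1 (682 and 551 against 118 and 94.4 CPM) and KIRREL3 on the IT_A side and TAFA2, OLFM2 and LRRN3 on the IT_B side.

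Proteins of the extracellular matrix and its sulfated sugars were divided. Of 48 proteoglycan and glycosaminoglycan genes, 4 were higher in IT_A and 6 in IT_B (10 and 13 with the block). Sulfotransferases that act on N-acetylgalactosamine residues stood on opposite sides, with CHST9 at 411 and 341 against 66.2 and 60.1 CPM (log2 fold change 2.50 ± 0.16) and CHST15 at 14.9 and 14.1 against 101 and 93.3 CPM (log2 fold change -2.81 ± 0.21). HS3ST5, a heparan sulfate sulfotransferase, was higher in IT_B at 78.5 and 76.0 against 201 and 170 CPM. Of 74 matrix, integrin and protease genes, 8 were higher in IT_A and 9 in IT_B (15 and 19 with the block). TNR, the perineuronal matrix protein tenascin-R, was higher in IT_A (87.4 and 117 against 19.6 and 25.4 CPM), as was ADAMTS2, a protease that trims procollagen (96.5 and 58.0 against 14.2 and 7.70 CPM). ADAMTS2 was at 293 and 208 CPM in IT_A_4 and 159 and 180 CPM in IT_A_5, while IT_A_1 to IT_A_3 had 9.75 to 22.4 CPM and IT_A_2 and IT_A_3 of animal 1 lay below IT_B. The type IV collagen chains COL4A1 (16.6 and 12.0 against 35.2 and 39.5 CPM) and COL4A2 (35.8 and 19.9 against 97.4 and 86.4 CPM) were both called higher in IT_B. For COL4A1 this order did not hold in IT_A_4, which had 41.3 and 49.6 CPM, above IT_B in both animals, while the other IT_A types had 1.67 to 14.8 CPM.

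Of 107 growth factor and morphogen genes, 16 were higher in IT_A and 21 in IT_B (27 and 34 with the block), with a median log2 fold change of -0.13. BDNF, a neurotrophin whose transcription follows neuronal activity, was at 56.9 and 82.2 CPM in IT_A and 7.65 and 11.5 CPM in IT_B (log2 fold change 2.80 ± 0.38, adjusted p = 0.00201). It was higher still in IT_D, at 153 and 159 CPM. ACVR1C, an activin receptor, was also higher in IT_A, and RET, a receptor for ligands of the GDNF family, was higher in IT_B (6.27 and 4.18 against 42.0 and 30.9 CPM), as was IGFBP2 (8.45 and 8.57 against 36.6 and 35.4 CPM). Of 32 activity-regulated genes, 9 were higher in IT_A and 0 in IT_B (13 and 5 with the block), with a median log2 fold change of 0.42. At an unadjusted p under 0.05, 13 were higher in IT_A and 2 in IT_B in edgeR, and DESeq2 called 7 and 0. Besides BDNF these included SORCS3 (485 and 660 against 138 and 138 CPM) and MAPK4 (73.2 and 59.1 against 28.1 and 21.05 CPM). SORCS3 had the reverse order in IT_A_5, at 62.0 and 74.2 CPM, below IT_B in both animals.

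Within the list for vesicle release, 7 of 54 genes were higher in IT_A and 8 in IT_B (11 and 13 with the block). Complexin CPLX2 accompanied OTOF and SYT17 in IT_A (122 and 112 against 40.5 and 38.4 CPM). RIMS3, the effector RPH3A (92.4 and 98.2 against 251 and 272 CPM) and the dense-core vesicle factor CADPS2 (265 and 195 against 928 and 894 CPM) were higher in IT_B. Of 54 genes of cyclic nucleotide signalling, 9 were higher in IT_A and 5 in IT_B (19 and 13 with the block), with the cyclic GMP enzymes PRKG2 (22.9 and 23.9 against 3.76 and 3.46 CPM) and PDE5A (40.5 and 47.0 against 10.8 and 10.4 CPM) on the IT_A side. Of 48 calcium-binding proteins and kinases, 14 were higher in IT_A and 6 in IT_B (22 and 11 with the block). CALN1 (317 and 332 against 64.3 and 54.4 CPM) and HPCAL1 went with IT_A, and the exchanger SLC24A3 (40.5 and 26.9 against 184 and 167 CPM), opposite to SLC24A4, went with IT_B.

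Of 93 cytoskeleton and small GTPase genes, 5 were higher in IT_A and 6 in IT_B (15 and 18 with the block), 11.8% of those tested. DOCK10, an exchange factor for small GTPases, was at 29.7 and 34.1 against 69.7 and 96.1 CPM. Of 20 neuropeptides and secreted signals, 2 were higher in IT_A and 4 in IT_B (6 and 5 with the block, 2 and 2 without type IT_A_1). The proprotein convertases split, with PCSK6 at 108 and 78.4 against 21.3 and 14.0 CPM and PCSK5 at 58.1 and 38.3 against 402 and 170 CPM, and CCK was higher in IT_B by a log2 fold change of -0.57 ± 0.13. Of 44 oxidative phosphorylation genes, 0 were called in edgeR's test (1 in each direction with the block), and their median log2 fold change was -0.02. At an unadjusted p under 0.05, 1 was higher in IT_A and 0 in IT_B, and DESeq2 called 0.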

How the data were processed

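Nuclei of V1 of 2 opossums were profiled with droplet snRNA-seq, with 2 libraries per animal from the same suspension, summed as 1 replicate. Alignment by the authors was done with Cell Ranger (6.1.1 in the methods, 7.1.0 in the file headers), against ASM229v1 and Ensembl gene models with lengthened 3′ ends, and counted reads in introns, and the values the authors deposited are raw UMI counts for each gene in each nucleus. The deposited labels give subclass and type, beside a Scrublet score, a fraction that the authors computed per nucleus. Levels therefore include unspliced RNA. Of 30800 genes, 11590 had a symbol, taken from the files alone, and no sequences or coordinates are given. Some genes that the naming rule selects are not reported here.

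Nuclei of a subclass were added up within each animal, and the 8 resulting sums for 4 IT subclasses were fitted together in edgeR 4.0.16 (R 4.3.3) with TMM normalization, filterByExpr, the quasi-likelihood test for IT_A minus IT_B and Benjamini-Hochberg adjustment at 0.05. CPM are counts over the total of the sum, log2 ratios per animal add 0.5 CPM, and fold changes carry the SE of the fit. Shares used nuclei thinned to 2000 UMIs. The rest was done with matplotlib 3.10.9, scikit-learn 1.9.0, scipy 1.17.1, pandas 2.3.3 and numpy 2.4.6 in Python 3.11.15, and the fit was tested on simulated counts. Named genes were the 12 called genes of each direction with the largest fold change, provided that they had a symbol, one direction in both animals and 20 CPM or more in both sums of the subclass where they were higher, up to 3 such genes per direction of each list, the given markers, the cortical layer genes, and 2 genes without a symbol in each direction. The comparison, the gene lists and this rule were chosen with earlier results of these data known.

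Sums that came from the same animal were treated as paired in the block. Deviations of these sums around their subclass mean correlated at 0.581 for IT_A with IT_B, and at 0.114 to 0.609 over all 6 pairs of subclasses, across 16720 genes. Alternatives covered normalization, DESeq2 1.42.0, the filter, the sums in the fit, the block, doublets, equal nuclei, thinning, labels from the other genes and each animal alone. Leaving out type IT_A_1 was added after seeing the data.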

Additional observations from a re-analysis of the deposited data

Results flagged for a closer look

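ANGPT1, the gene of the vascular growth factor angiopoietin-1, was the only 1 of 6561 genes with at least 20 CPM in any of the 4 sums that differed by at least 1.5-fold in opposite directions in the animals. Its log2 ratio of IT_A over IT_B was 0.84 in animal 1 and -1.44 in animal 2, and both libraries of each animal had their animal's direction. The counts were low in IT_B, with 13 and 7 UMIs in the libraries of animal 1 against 79 and 83 in those of animal 2, while IT_A had 4.88 and 4.90 CPM against 6.48 and 8.07 CPM. It was not called in the comparison (adjusted p = 0.709 in edgeR), and the difference between the animals was not tested.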

How the results depend on the processing

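The count of 1369 called genes stayed within 1.5 times under 9 alternatives, at 985 after thinning, 1117 with 851 nuclei a sum, 1191 with labels from the other genes, 1307 with 4 sums, 1377 with library size only, 1391 without doublets, 1392 with DESeq2's size factors in edgeR, 1402 with DESeq2 and 1643 without type IT_A_1. Without the low-count filter 2076 genes were called, 1059 of them higher in IT_A. With the animal as a replicate block 3953 genes were called, 1906 higher in IT_A and 2047 in IT_B, and with 4 sums and the block 4912, of which 2413 and 2499. In each animal alone the direction of all 1369 (619 and 750) was the same, which follows from their sums not overlapping and is no further test. The share of IT_B was 16.5% and 13.6% with each animal alone. Under the block the number of called members was 21 for cortical layer genes, 60 for transcription factors, 30 for potassium channels, 29 for other cation channels, 14 for glutamate receptors, 6 for GABA and glycine receptors, 28 for neuromodulator receptors, 43 for axon guidance, 46 for synaptic adhesion, 23 for proteoglycans, 34 for matrix genes, 61 for growth factors, 18 for activity-regulated genes, 24 for vesicle release, 32 for cyclic nucleotide genes, 33 for calcium-binding proteins, 33 for cytoskeleton genes, 2 for oxidative phosphorylation and 11 for neuropeptides. Without type IT_A_1 the cytoskeleton list had 18. The cause of these shifts was not tested. Without thinning, mean shares of nuclei with a UMI were 32.0% in IT_A and 99.1% in IT_B for RORB, 26.4% and 6.78% for CDH9 and 13.3% and 25.6% for WHRN.

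Of the 134 named genes 118 were called. All 118 remained called with DESeq2's size factors, DESeq2, either block and without doublets. At most 7 of them lost the call elsewhere, the most with equal nuclei and with thinning, and none turned. Of the genes with no call, LHX2 turned to -0.014 with equal nuclei and -0.091 with thinning, POU3F3 to -0.12 without type IT_A_1 and FEZF2 to 0.27 with thinning. Sums of IT_B held fewer UMIs than those of IT_A, and 2 animals limit every test.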

Other observations

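Called genes outside the rule for named genes, chosen here after their values were seen, add to the same groups. SLC17A6, the vesicular glutamate transporter VGLUT2, was higher in IT_B at 42.9 and 46.8 CPM against 19.3 and 20.4 CPM in IT_A (log2 fold change -1.24, adjusted p = 0.00881 in edgeR). SEMA3E, a secreted semaphorin that binds PLXND1, was at 14.5 and 17.7 CPM in IT_B and 1.68 and 1.90 CPM in IT_A, while PLXND1 was higher in IT_A. NTN4, a netrin, was at 14.8 and 18.4 CPM in IT_B against 2.18 and 1.54 CPM in IT_A. CALB1, the calcium buffer calbindin, had the other order, with 55.0 and 50.3 CPM in IT_A and 27.7 and 23.6 CPM in IT_B.

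Several receptors and signals at low levels also differed. WNT7A, a Wnt ligand, was at 16.8 and 12.5 CPM in IT_A and 1.76 and 1.41 CPM in IT_B. PDYN, the precursor of dynorphin peptides, was at 16.8 and 13.5 CPM in IT_A against 1.00 and 0.642 CPM in IT_B, where the sums held 8 and 5 UMIs. ADRA2C, an adrenergic receptor, and KCNG1, a silent potassium channel subunit, were higher in IT_A at log2 fold changes of 3.02 and 3.03. NEUROD1, a bHLH factor, was at 2.88 and 2.31 CPM in IT_B and 0.249 and 0.223 CPM in IT_A. IGSF9, a cell adhesion gene, was counted at 2.54 and 1.99 CPM in IT_A and at 0 UMIs in both IT_B sums.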
